A study of Mus musculus with 24 samples.

Results

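Akr1c21, Prdx2, Gsta4, B4galnt2 and Serpina3a encode 4 enzymes and 1 protease inhibitor whose array signal in the mouse digit differed between the MRL and C57BL/6 (B6) strains. These 5 genes, of 14807 genes measured by a probe set with 1 symbol, were selected on these arrays, by large differences between the mean log2 levels of MRL and B6 on 1 or more days. The size of the strain gap on any day is therefore a description and carries no test. What was asked is whether each gap stayed the same after amputation or changed. Prdx2 was lower in MRL by 1.23 to 1.80 on the log2 scale and B4galnt2 higher by 1.66 to 1.94 on all 4 days. The Akr1c21 gap was smallest at day 3, and the Gsta4 gap closed at days 3 and 7, as the B6 level moved. Serpina3a was higher in MRL throughout, by an amount that depended on 2 groups of arrays with doubtful day labels.

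The 5 genes do different chemistry. Akr1c21 is an aldo-keto reductase that oxidises and reduces hydroxyl groups on steroids in the mouse. Prdx2 is a peroxiredoxin, which reduces hydrogen peroxide with electrons from thioredoxin. Gsta4 is an alpha-class glutathione transferase that joins glutathione to 4-hydroxynonenal and other products of lipid peroxidation. B4galnt2 is a Golgi enzyme that adds N-acetylgalactosamine to sialylated glycans and so makes the Sda blood group antigen, and its expression is known to differ between mouse strains. Serpina3a belongs to a cluster of clade A serpins that is expanded in the mouse relative to the single human SERPINA3 gene, which encodes the protease inhibitor antichymotrypsin.

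The arrays measured total RNA from the second phalanx of the middle hindlimb digits of wild-type C57BL/6 and MRL/MpJ mice aged 3 to 4 months. Digits were amputated at day 0, and tissue was taken unamputated (day 0) or at days 3, 7 and 14 in each strain. Each of the 8 strain-by-day groups held 3 biological replicates, 24 arrays in all. Levels are log2 of the deposited intensities and are given as mean ± SD (n = 3), so a difference of 1 is a 2-fold difference in intensity. The digit is a mixed tissue, and fewer cells of a type and less RNA per cell cannot be told apart.

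The arrays labelled MRL day 0 and MRL day 3 went against their labels. Il1b, an inflammatory cytokine, rose in B6 from 6.01 at day 0 to 11.78 at day 3, but stood at 10.21 on the arrays labelled MRL day 0 and at 5.98 on those labelled MRL day 3. The hair keratin Krt31 ran the other way in both strains, at 10.60 and 6.38 in B6 and at 7.48 and 10.13 in the arrays labelled MRL day 0 and MRL day 3. Their strain fitted the label, since the class II gene H2-Ea was between 10.73 and 11.31 in the 4 MRL groups and between 5.17 and 5.26 in the 4 B6 groups. Strain gaps and gap changes that use these 6 arrays are therefore given as labelled and also with the 2 sets exchanged. Changes within MRL name the set they use. Comparisons among the B6 groups, and between days 7 and 14, use none of them as a compared group.

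The promoters of the members differ in base composition, and 3 are shown because they belong to the gene whose B6 level moved furthest, to a gene whose B6 level hardly moved, and to the inhibitor. Each window runs from 250 bases before to 50 bases after the annotated start, from RefSeq on GRCm38.p6, which is not the build of the arrays. CpG dinucleotides are in capitals. The windows are chr13:4573825-4574124 on the plus strand for Akr1c21, chr8:84969372-84969671 on the plus strand for Prdx2 and chr12:104112474-104112773 on the plus strand for Serpina3a.
Akr1c21: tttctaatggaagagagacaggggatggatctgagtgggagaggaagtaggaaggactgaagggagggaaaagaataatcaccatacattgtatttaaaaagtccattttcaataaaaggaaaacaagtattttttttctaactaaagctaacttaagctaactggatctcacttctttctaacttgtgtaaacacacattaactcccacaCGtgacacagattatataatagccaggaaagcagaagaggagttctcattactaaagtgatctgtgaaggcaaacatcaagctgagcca
Prdx2: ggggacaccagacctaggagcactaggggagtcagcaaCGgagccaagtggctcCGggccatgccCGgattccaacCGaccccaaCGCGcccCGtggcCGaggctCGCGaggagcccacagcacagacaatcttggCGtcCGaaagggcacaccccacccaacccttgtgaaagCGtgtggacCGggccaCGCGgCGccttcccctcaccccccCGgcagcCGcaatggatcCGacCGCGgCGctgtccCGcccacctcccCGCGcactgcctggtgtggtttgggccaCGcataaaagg
Serpina3a: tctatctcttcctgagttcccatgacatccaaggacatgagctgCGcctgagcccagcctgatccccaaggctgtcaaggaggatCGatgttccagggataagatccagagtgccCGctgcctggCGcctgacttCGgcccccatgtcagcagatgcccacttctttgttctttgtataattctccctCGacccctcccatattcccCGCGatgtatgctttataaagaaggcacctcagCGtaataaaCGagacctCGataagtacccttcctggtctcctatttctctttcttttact

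The Akr1c21 window held 1 CpG and a GC content of 37.3%, and 5.43% of the 32851 promoters in the table held fewer CpGs. The Prdx2 window held 27 CpGs, and 84.5% of promoters held fewer. B4galnt2, whose window is chr11:95914822-95915121 on the minus strand, held 21 CpGs, against a median of 7 for all promoters. Serpina3a held 11 CpGs and was the one window of the 4 with TATAAA, which begins at base -29 from the start on the plus strand and overlaps a match on the minus strand at base -31. TATAAA on either strand occurred in 13.6% of all promoters. TGACNNNGC, the core of the antioxidant response element searched on both strands, was in none of the 4 windows and in 12.4% of all promoters. These are matches of letters and not binding sites. Gsta4 had no entry among these promoters and was not searched.

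**Figure D1:**
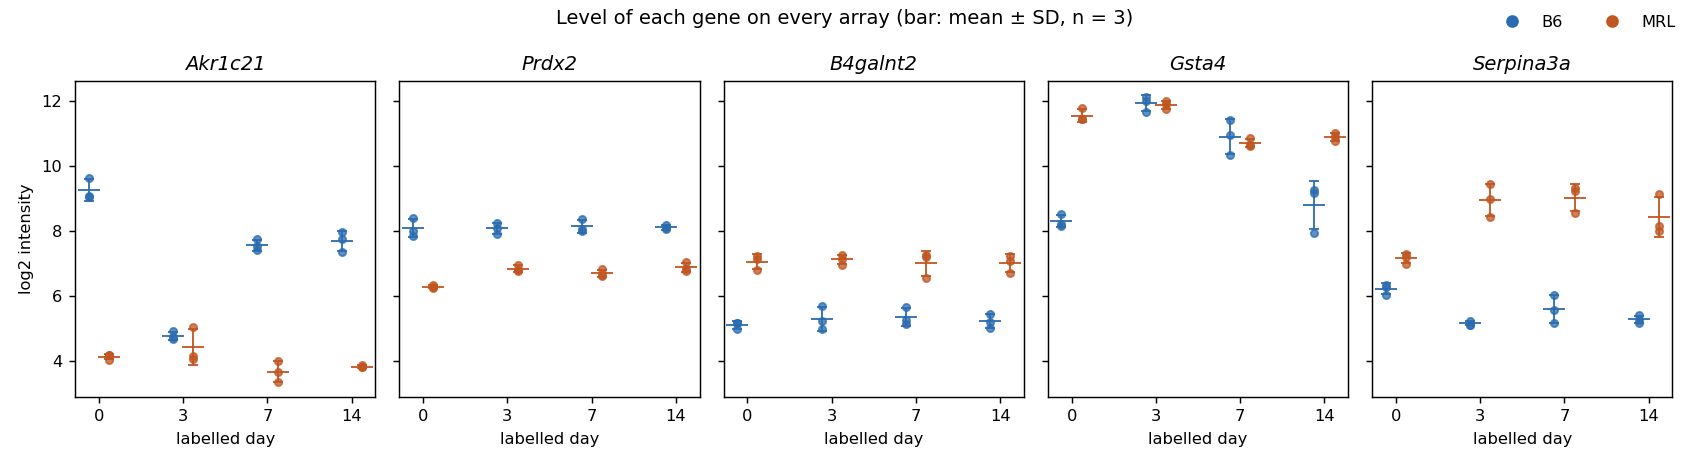
Log2 intensity (y axis) of the 5 genes by labelled day (x axis, days evenly spaced), with 1 point per array, B6 in blue and MRL in orange, and bars for the mean ± SD of 3 arrays. Prdx2, B4galnt2 and Serpina3a keep the strains apart on every day, whereas Akr1c21 drops to the MRL range in B6 at day 3 and Gsta4 meets it in B6 at days 3 and 7.

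Akr1c21 was high in B6 digits and low in every MRL array. In B6 its level was 9.04, 9.08 and 9.63 in the unamputated digits (9.25 ± 0.33), 4.74, 4.68 and 4.93 at day 3 (4.78 ± 0.13), 7.74, 7.41 and 7.54 at day 7 (7.56 ± 0.17) and 7.97, 7.35 and 7.76 at day 14 (7.69 ± 0.31). The arrays labelled MRL day 0 read 4.05, 4.19 and 4.20, those labelled MRL day 3 read 5.06, 4.07 and 4.17, those of day 7 read 3.35, 3.67 and 4.01 and those of day 14 read 3.81, 3.81 and 3.89. The strains did not overlap at days 0, 7 and 14. At day 3 as labelled they overlapped through the MRL array at 5.06. Every B6 day 3 array lay above the arrays labelled MRL day 0. In the unamputated B6 digit the signal was at or above that of 86.4% of all probe sets, and in the 4 MRL groups it was at or above only 6.36% to 11.5% of them, near the low end of the array. At B6 day 3 it was at or above 12.8% of them, so at day 3 both strains read near that end.

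The B6 level of Akr1c21 fell by 4.47 ± 0.22 (SE) on the log2 scale at day 3, a 22.2-fold drop (limma, adjusted p = 2.17e-12). It then rose by 2.78 between days 3 and 7 (adjusted p = 1.84e-08) and stayed below the unamputated level, by -1.69 at day 7 (adjusted p = 2.80e-06) and -1.56 at day 14 (adjusted p = 1.14e-05). The days 7 and 14 did not differ beyond their spread (0.13, 95% interval -0.32 to 0.58). In order of level, B6 day 0 thus stood above days 14 and 7, which were alike within error, and day 3 was lowest. At day 3, 3 of the 5 genes passed in B6 (Akr1c21, Gsta4 and Serpina3a), where 45.4% of all probe sets passed. At day 7, Akr1c21 and Gsta4 passed against day 0 (42.9% of all probe sets) and also against day 3 (21.2%).

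In MRL the level moved little, but it lay near the low end of the array, where a further fall may not show. The 4 group means spanned 0.75, against 4.47 in B6. Relative to the arrays labelled day 0, day 7 was at -0.47 (limma, adjusted p = 0.147) and day 14 at -0.31 (adjusted p = 0.373). Day 14 differed from day 7 by 0.16 (95% interval -0.29 to 0.61, adjusted p = 0.865), and 0 of the 5 genes passed this comparison in MRL in the limma fit of all arrays, where 3.54% of all probe sets did. At an unadjusted p under 0.05 there was 1, Serpina3a. Day 7 was below the arrays labelled day 3 by -0.75 (adjusted p = 0.0136), a comparison that Gsta4 also passed and 23.1% of all probe sets did. That call was lost without the first of those arrays (-0.44), the one at 5.06, and without the first day 7 array (-0.59). It was also lost with 16 added to each intensity before the log (-0.39, adjusted p = 0.0808). In a limma fit of the compared arrays alone the adjusted p was 0.0799.

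The MRL minus B6 gap of Akr1c21 was -5.11 at day 0 as labelled, -0.35 at day 3, -3.88 at day 7 and -3.86 at day 14, each ± 0.22 (SE). Across all probe sets, 40% differed between the strains at day 0 and 40.6% at day 3 as labelled, 9.46% at day 7 and 5.27% at day 14, and nothing is read from these shares for genes selected on the gap. By absolute size the gap ranked 5 of 14807 genes at day 0, 5653 at day 3, 5 at day 7 and 4 at day 14. With 16 added to each intensity before the log, which pulls in low values, the day 7 gap was -2.83 and the day 14 gap -2.88, so the size of the gap depended on how signals near the low end were treated. Set against the MRL arrays of the other label, B6 day 0 gave a gap of -4.82 and B6 day 3 a gap of -0.64. The 95% interval of the latter was -1.09 to -0.19, against -0.80 to 0.10 for day 3 as labelled.

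The gap therefore narrowed after amputation, and it did so under either labelling. Relative to day 0 it changed by 4.76 at day 3 (adjusted p = 7.45e-11), by 1.22 at day 7 (adjusted p = 0.00425) and by 1.25 at day 14 (adjusted p = 0.00422). Of the 5 genes 4 passed at day 3, 3 at day 7 and 4 at day 14, where 45.2%, 31.2% and 26.7% of all probe sets did. With the 2 sets of MRL arrays exchanged, the same changes were 4.18, 0.93 and 0.96. Between days 7 and 14 the gap changed by 0.03, with a 95% interval of -0.61 to 0.66. These tests use the arrays on which the genes were picked and so are not independent of the choice.

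**Figure D2:**
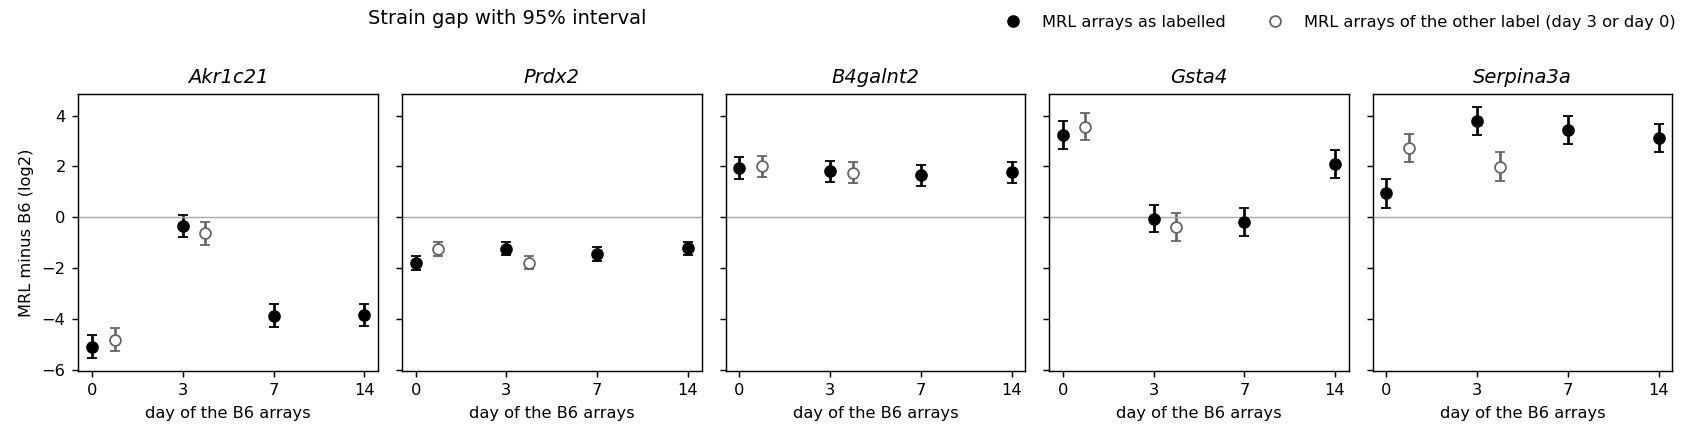
MRL minus B6 difference in log2 intensity (y axis) by day of the B6 arrays (x axis, days evenly spaced), with 95% intervals from the fit of all arrays. Filled points use the MRL arrays as labelled and open points the MRL arrays of the other doubtful label. The intervals of Akr1c21 lie near -4 at days 7 and 14, and the Gsta4 gap is near 0 at days 3 and 7 and at 2.10 at day 14.

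Skin-appendage markers fell in B6 alongside Akr1c21. Of 13 measured hair and nail keratins of 22 listed, 13 fell at day 3 and 13 at day 7, but only 2 at day 14, when their median level was 10.00 against 10.27 unamputated. Their summed intensity ran from 26426 to 32761 at B6 day 0 and from 2459 to 3443 at B6 day 3. Of 9 measured sebaceous gland markers of 11 listed, 9 fell at day 3, 9 at day 7 and 8 at day 14, and their summed intensity went from 30009 to 31383 at day 0 to 15184 to 17576 at day 3. Adipocyte markers fell in 7 of 8 measured at day 3 and in 6 at days 7 and 14. Over all genes the median B6 change at day 3 was -0.08. Of all probe sets, 45.4%, 42.9% and 37% passed in B6 at days 3, 7 and 14 in either direction. No marker of these lists was at 0. In MRL the keratins stood higher than in B6 at day 7 in 12 of 13 and at day 14 in 5 of 13, and the sebaceous markers in 1 of 9 on both days, while Akr1c21 was lower in MRL on both. Between the strains, 9.46% of all probe sets passed at day 7 and 5.27% at day 14. The part of these cell types in the B6 time course of Akr1c21 was not tested.

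**Figure D3:**
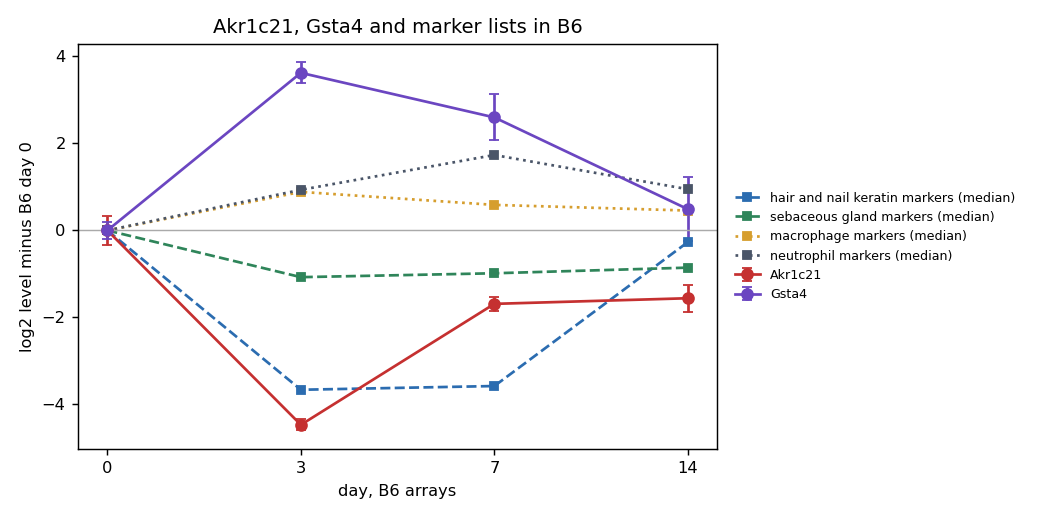
Change from unamputated B6 digits in log2 level (y axis) by day (x axis, days evenly spaced) for Akr1c21 and Gsta4 (circles, mean with the SD of 3 arrays) and for the median level of 4 marker lists (squares, no error drawn). Akr1c21 and the hair and nail keratins are both low at day 3, but Akr1c21 regains 2.78 by day 7 while the keratin median stays low until day 14. Before B6 day 0 is subtracted, the keratin median level was 10.27 at day 0, 6.60 at day 3, 6.69 at day 7 and 10.00 at day 14.

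Of the other aldo-keto reductases, 12 of 16 listed were measured, and 0 were higher and 3 lower in MRL at day 7, and 0 were higher and 2 lower at day 14. The shares over all probe sets were 9.46% and 5.27%. As labelled, 4 were higher and 3 lower at day 0, and 2 were higher and 3 lower at day 3. The median of the 12 was -0.13 at day 7 and -0.14 at day 14, against -0.07 and -0.06 over all genes. The 2 that passed on both days were Akr1e1, an enzyme that reduces 1,5-anhydrofructose, and Akr1d1, a steroid 5-beta-reductase.

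Akr1e1 is the next gene after Akr1c21 in the reference order and the only one of its 6 nearest measured neighbours to pass at both days. Its level at day 7 was 8.18 ± 0.06 in B6 and 5.89 ± 0.83 in MRL, and its gap was -2.29 ± 0.23 (SE) at day 7 and -2.18 ± 0.23 at day 14 (adjusted p = 1.44e-06 and 3.52e-06). Unlike Akr1c21 it did not fall in B6 at day 3, where it stood at 7.96 against 7.51 unamputated, so its gap was also -1.87 at day 0 and -2.43 at day 3 as labelled. Akr1c20, Akr1c6 and Akr1c19, the paralogues on the other side, had gaps of 0.06, 0.16 and -0.11 at day 7, at mean levels between 3.47 and 4.50.

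Akr1d1 read 8.95 ± 0.35 in B6 and 6.79 ± 0.90 in MRL at day 7, a gap of -2.16 ± 0.45 (adjusted p = 0.00333), and its gap at day 14 was -1.53 (adjusted p = 0.0479). Akr1b8, a reductase of aldehydes, was lower in MRL at day 7 by -0.76 (adjusted p = 0.0221) and by -0.35 at day 14 (adjusted p = 0.425).

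Prdx2 was lower in MRL on every day and hardly moved in B6. In B6 the arrays read 8.01, 7.86 and 8.41 unamputated (8.09 ± 0.29), 7.91, 8.10 and 8.24 at day 3 (8.08 ± 0.17), 8.0, 8.38 and 8.05 at day 7 (8.14 ± 0.20) and 8.05, 8.20 and 8.10 at day 14 (8.12 ± 0.07). In MRL they read 6.29, 6.25 and 6.34 as labelled day 0, 6.76, 6.81 and 6.97 as labelled day 3, 6.66, 6.82 and 6.62 at day 7 and 7.04, 6.84 and 6.78 at day 14. The highest MRL array (7.04) lay below the lowest B6 array (7.86), so the 12 arrays of one strain did not overlap the 12 of the other. Such a split was found in 74 of 14807 genes (0.5%), and 25 of these were higher and 49 lower in MRL.

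The Prdx2 gap was -1.80, -1.24, -1.44 and -1.23 at days 0, 3, 7 and 14 as labelled, each ± 0.13 (SE), which is 2.34-fold to 3.48-fold lower in MRL. Within B6 none of the changes from day 0 exceeded 0.05 in size, with 95% intervals inside -0.28 and 0.32, and the 4 B6 groups had no order beyond their spread. Between days 7 and 14 the gap changed by 0.21 (95% interval -0.16 to 0.59). The gap as labelled was wider at day 0 than at day 3 by 0.56 (adjusted p = 0.0149) and than at day 14 by 0.57 (adjusted p = 0.0224), which came from the low values labelled MRL day 0. Exchanging the arrays turned the first change to -0.54 (adjusted p = 0.0594) and took the other to 0.020. Within MRL, days 7 and 14 were above the arrays labelled day 0 by 0.41 and 0.59 (limma, adjusted p = 0.0314 and 0.00211). Against those labelled day 3 they differed by -0.14 and 0.04, and neither passed.

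Among other peroxiredoxin and thioredoxin genes, 11 of 14 listed were measured, and in the limma fit 1 was lower in MRL at day 7 and 0 differed at day 14, when 2 had an unadjusted p under 0.05. The one was Prdx1, a close relative, at -0.84 ± 0.26 at day 7 (adjusted p = 0.0447) and -0.39 at day 14 (adjusted p = 0.514). None of the 6 measured neighbours of Prdx2, which include the transcription factor gene Junb, passed at both day 7 and day 14, and the median absolute gap among them was 0.10 at day 7. Prdx2 is also an abundant protein of red blood cells. Of 15 erythroid markers listed, 6 were measured, globin genes not among them, and 0 of the 6 differed between the strains at day 7 or at day 14, with a median gap of -0.08 and 0.11 (limma, 0 and 1 with an unadjusted p under 0.05). For both lists, the shares over all probe sets were 9.46% at day 7 and 5.27% at day 14. The median level of the 6 erythroid markers was low, from 5.70 to 5.74 in the groups of these days. The part of red blood cells in the Prdx2 gap was not tested.

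Gsta4 was far lower in B6 than in MRL before amputation and at day 14, and the strains overlapped at days 3 and 7. In B6 the arrays read 8.16, 8.23 and 8.52 unamputated (8.30 ± 0.19), 11.99, 11.66 and 12.12 at day 3 (11.92 ± 0.24), 10.35, 10.95 and 11.40 at day 7 (10.90 ± 0.53) and 9.26, 9.17 and 7.94 at day 14 (8.79 ± 0.73). In MRL they read 11.77, 11.44 and 11.43 as labelled day 0, 11.73, 11.89 and 11.98 as labelled day 3, 10.64, 10.86 and 10.61 at day 7 and 11.00, 10.89 and 10.76 at day 14. The strains were apart at days 0 and 14 and overlapped at days 3 and 7. The third B6 array of day 14 was the lowest of all 24.

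Gsta4 in B6 rose by 3.62 ± 0.26 (SE) at day 3, a 12.3-fold rise (adjusted p = 7.93e-10). It fell again by 1.03 from day 3 to day 7 (adjusted p = 0.00711), a call lost without the first day 7 array (-0.75), and by 2.11 from day 7 to day 14 (adjusted p = 1.71e-05), a change passed by 1.86% of all probe sets. At day 14 it stood 0.49 above the unamputated level (95% interval -0.05 to 1.03, adjusted p = 0.151), and 0.91 above it without the lowest day 14 array, which then passed. The order in B6 was day 3, day 7, then days 14 and 0, which did not differ in the fit of all arrays. MRL digits stayed high throughout, with group means spanning 1.16. There, day 14 differed from day 7 by 0.18 (95% interval -0.36 to 0.72), and both were below the arrays labelled day 3, by -1.16 and -0.98 (adjusted p = 0.00217 and 0.0142, the second passed by 13.1% of all probe sets). Relative to the arrays labelled day 0, MRL day 7 was at -0.84 (limma, adjusted p = 0.0294) and day 14 at -0.66 (adjusted p = 0.0868).

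The Gsta4 gap was 3.25 at day 0 as labelled, -0.06 at day 3, -0.19 at day 7 and 2.10 at day 14, each ± 0.26 (SE). The unamputated B6 digit was thus 9.49-fold below the arrays labelled MRL day 0, and 11.9-fold below those labelled MRL day 3 (3.57). Exchanging the labels left the pattern in place, with changes from day 0 of -3.94, -3.76 and -1.47 in place of -3.30, -3.44 and -1.15. The call at day 14 as labelled (adjusted p = 0.0246) was lost with cyclic loess (-0.89, adjusted p = 0.0693) and without any one of 5 arrays, the smallest change being -0.91 without B6 day 14 replicate 1.

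From day 7 to day 14 the Gsta4 gap widened by 2.29 ± 0.37 (SE, 95% interval 1.53 to 3.06, adjusted p = 0.00440). In this comparison 1 of the 5 genes passed, and 0.264% of all probe sets did, 42 of 15928. The doubtful MRL arrays enter it only through the shared estimate of the spread, and without them the adjusted p was 0.0223. In a fit of the 4 compared groups alone, where 1 probe set passed, the adjusted p of Gsta4 was 0.0966. Leaving out any single array gave changes between 1.87 and 2.57.

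Other glutathione transferases did not follow Gsta4. Of 17 measured of 23 listed, 2 rose and 9 fell in B6 at day 3, 2 rose and 7 fell at day 7, and 1 rose and 4 fell at day 14. Over all probe sets, 45.4%, 42.9% and 37% passed in B6 on these days in either direction, and 9.46% and 5.27% differed between the strains at days 7 and 14. Between the strains, 0 were higher and 1 lower in MRL at day 7, namely Gsto1, an omega-class enzyme (-0.57 ± 0.16, adjusted p = 0.0220), and 0 were higher and 1 lower at day 14, namely Hpgds, a prostaglandin D synthase (-0.51), named after its value was seen. None of the 17 passed for a change of its gap between days 7 and 14 (limma, 1 with an unadjusted p under 0.05). Neutrophil markers rose in B6 at day 3 in 6 of 9 measured and macrophage markers in 10 of 11, where 45.4% of all probe sets passed. At day 14, 9 of the 11 macrophage markers stood lower in MRL, where 5.27% of all probe sets passed, while Gsta4 was higher in MRL. The summed intensity of the neutrophil markers ran from 707 to 787 at B6 day 0, from 10671 to 12594 at day 3 and from 2211 to 6509 at day 14, and in MRL from 5583 to 8222 as labelled day 0 and from 1511 to 1901 at day 14. No marker of either list was at 0, and their part in the Gsta4 result was not tested. None of the 6 measured neighbours of Gsta4 passed at both day 7 and day 14.

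B4galnt2 was higher in MRL on every day, and neither strain moved after amputation beyond its spread. In B6 the arrays read 4.98, 5.19 and 5.19 unamputated, 4.98, 5.71 and 5.25 at day 3, 5.13, 5.26 and 5.66 at day 7 and 5.21, 5.02 and 5.45 at day 14. In MRL they read 7.15, 7.25 and 6.79 as labelled day 0, 6.97, 7.15 and 7.26 as labelled day 3, 6.56, 7.27 and 7.19 at day 7 and 7.07, 6.70 and 7.24 at day 14. The lowest MRL array (6.56) was above the highest B6 array (5.71), and by the margin between the strains B4galnt2 ranked 6 among the 74 genes that did not overlap, Prdx2 9 and Serpina3a 11.

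The B4galnt2 gap was 1.94, 1.81, 1.66 and 1.78 at days 0, 3, 7 and 14, each ± 0.20 (SE), or 3.15-fold to 3.85-fold. Its MRL group means spanned 0.12 and its B6 group means 0.23, so neither strain had an order of days beyond the spread. No change of the gap passed. From day 0 it changed by -0.13 at day 3, -0.29 at day 7 and -0.17 at day 14 (adjusted p = 0.736, 0.474 and 0.712), and from day 7 to day 14 by 0.12 with a 95% interval of -0.47 to 0.71. With the arrays exchanged, the gap was 2.01 at day 0 and 1.75 at day 3. The changes from day 0 were then -0.26, -0.35 and -0.23, and none passed.

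The list of other glycan transferases held enzymes that add N-acetylgalactosamine or galactose, and the St3gal enzymes, which add sialic acid. None of the 15 measured of 16 listed differed between the strains at day 7 or day 14. Their median gap was -0.02 and -0.12 (limma, 2 and 1 with an unadjusted p under 0.05). None of the 6 measured neighbours of B4galnt2 passed at both days, and their median absolute gap was 0.11 and 0.03. Endothelial markers, a vascular cell type in which some mouse strains express B4galnt2, were lower in MRL in 2 of 10 at day 7 and 3 of 10 at day 14 and higher in 0 on either day, where 9.46% and 5.27% of all probe sets passed. The part of this cell type in the B4galnt2 gap was not tested.

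Serpina3a was higher in MRL on all days, with the smallest gap in the arrays labelled day 0. In B6 the arrays read 6.28, 6.35 and 6.03 unamputated (6.22 ± 0.17), 5.13, 5.23 and 5.12 at day 3 (5.16 ± 0.06), 5.58, 5.17 and 6.03 at day 7 (5.59 ± 0.43) and 5.18, 5.41 and 5.28 at day 14 (5.29 ± 0.11). In MRL they read 7.28, 7.20 and 6.99 as labelled day 0, 9.43, 8.99 and 8.43 as labelled day 3, 8.55, 9.31 and 9.22 at day 7 and 8.15, 7.98 and 9.13 at day 14. The lowest MRL array (6.99) was above the highest B6 array (6.35).

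In B6, Serpina3a fell by 1.06 ± 0.27 (SE) at day 3 (adjusted p = 0.00295) and by 0.93 at day 14 (adjusted p = 0.00947), and its difference at day 7 was -0.63 (adjusted p = 0.0648). Days 3, 7 and 14 had no order beyond their spread. At day 14, 2 of the 5 genes passed in B6, Akr1c21 and Serpina3a, where 37% of all probe sets passed. In MRL the arrays labelled day 3 were above those labelled day 0 by 1.80 (adjusted p = 4.51e-05), and Prdx2 was the other of the 5 to pass this comparison, by 0.55 (adjusted p = 0.00369), where 20.5% of all probe sets passed. Days 7 and 14 of MRL were above the arrays labelled day 0 by 1.87 and 1.26 (limma, adjusted p = 4.31e-05 and 0.00190). Day 7 of MRL differed from the arrays labelled day 3 by 0.07 (95% interval -0.48 to 0.63), and day 14 from day 7 by -0.61 (95% interval -1.16 to -0.05, adjusted p = 0.308). This last difference passed without the third day 14 array (-0.96, adjusted p = 0.0384) and with array weights (-1.01).

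The Serpina3a gap was 0.94, 3.79, 3.43 and 3.13 at days 0, 3, 7 and 14 as labelled, each ± 0.27 (SE). At day 7 the MRL signal was 10.8-fold higher, the ninth-largest absolute gap of all genes by rank (9 of 14807), and at day 14 it was 8.76-fold higher (rank 6). As labelled the gap widened from day 0 by 2.86 at day 3 (adjusted p = 3.03e-06), by 2.50 at day 7 (adjusted p = 4.47e-05) and by 2.19 at day 14 (adjusted p = 1.95e-04). This widening hung on the day labels. With the arrays exchanged, the gap was 2.73 at day 0 and 2.00 at day 3, and the changes were -0.74 (adjusted p = 0.215), 0.70 (adjusted p = 0.204) and 0.40 (adjusted p = 0.523). From day 7 to day 14, where the labels are not in doubt, the gap changed by -0.30 (95% interval -1.09 to 0.48).

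Of the other clade A serpins, 9 of 23 listed were measured, and none was higher in MRL at days 7 and 14. At day 7, 4 were lower and 5 did not pass, and at day 14, 3 were lower and 6 did not pass, where 9.46% and 5.27% of all probe sets passed. As labelled, 1 was higher and 3 lower at day 0, and 2 were higher and 2 lower at day 3. The 4 at day 7 were Serpina9 (-1.90 ± 0.23, adjusted p = 1.33e-05), Serpina3b (-1.18 ± 0.18, adjusted p = 2.36e-04), Serpina12 (-1.05 ± 0.15, adjusted p = 9.50e-05) and Serpina3n (-1.01 ± 0.19, adjusted p = 0.00172). Serpina12 is the adipokine vaspin. Serpina3n was at -0.28 at day 14 (adjusted p = 0.540), and the other 3 passed on both days.

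All 4 of these serpins lie among the 6 measured neighbours of Serpina3a. Over the 30 neighbours of the 5 genes, 4 passed at both days in one direction, Akr1e1 and the serpins Serpina9, Serpina12 and Serpina3b, whereas 3.02% of all probe sets did so. Serpina3b, the next measured gene after Serpina3a, is read by a probe set near the upper end of the scale, at 10.45 ± 0.29 in B6 and 9.27 ± 0.29 in MRL at day 7. Akr1c21 and Serpina3a lie in clusters of similar genes, and how far each probe set reads a paralogue was not tested.

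**Figure D4:**
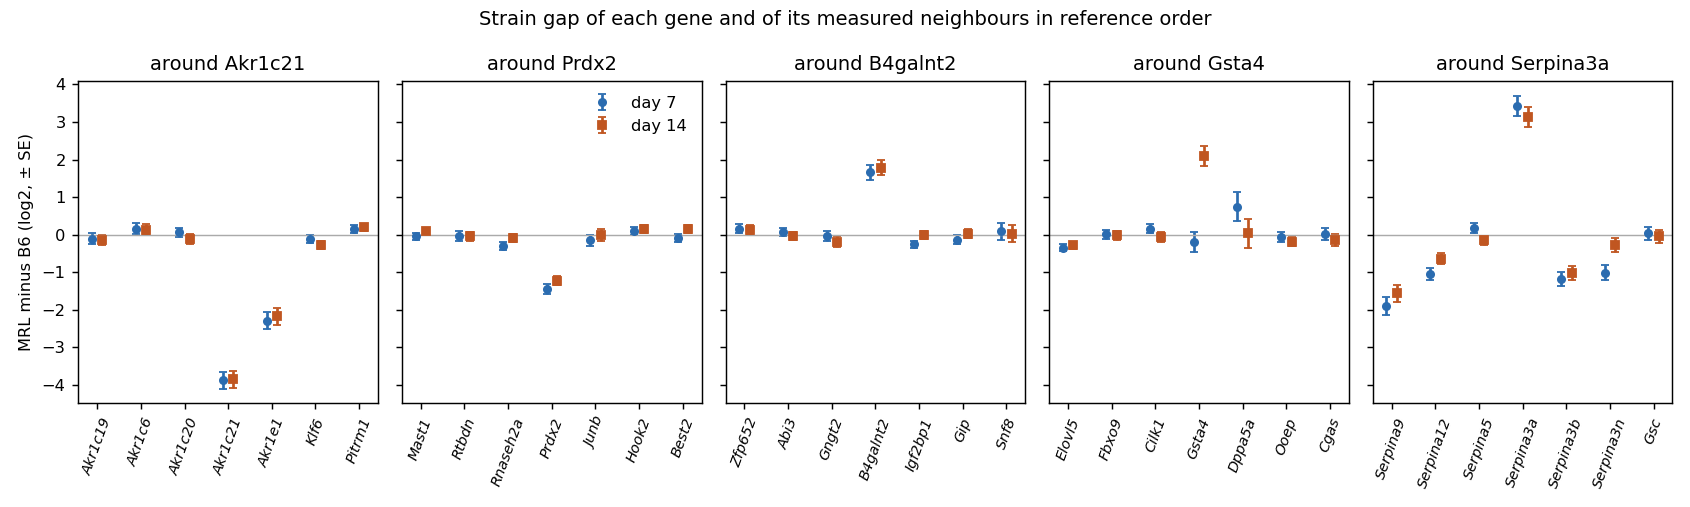
MRL minus B6 difference in log2 intensity ± SE (y axis) at day 7 (blue circles) and day 14 (orange squares) for each of the 5 genes and up to 3 measured genes on either side in reference order (x axis, not to scale). Beside Akr1c21 the gap of Akr1e1 is -2.29 and -2.18, around Serpina3a several serpins lie below 0, and around Prdx2, B4galnt2 and Gsta4 none of 6 neighbours passed at both days.

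The share of the variation that went with strain differed among the 5 genes. They were picked on the strain gap of these arrays, so the shares are a description. Of the sum of squares over the 24 arrays, strain took 93.8% for B4galnt2, 91.9% for Prdx2, 81.5% for Serpina3a, 66.1% for Akr1c21 and 23.7% for Gsta4, under either labelling. Day alone took 40.4% for Gsta4 and 13.3% for Akr1c21 as labelled. The strain-by-day share was 31.1% for Gsta4, 19.2% for Akr1c21, 12.7% for Serpina3a, 2.42% for Prdx2 and 0.307% for B4galnt2. With the arrays exchanged it was 39.6%, 15.3%, 2.96%, 2.29% and 0.483% in the same order.

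A joint F test of the 3 gap changes from day 0 passed for 4 of the 5 genes as labelled, where 48.2% of all probe sets passed. It uses the arrays on which the genes were picked and so is not independent of the choice. The F values were 90.7 for Akr1c21 (adjusted p = 5.92e-10), 41.8 for Gsta4 (adjusted p = 1.97e-07), 23.2 for Serpina3a (adjusted p = 1.14e-05) and 4.40 for Prdx2 (adjusted p = 0.0340), and 0.349 for B4galnt2 (adjusted p = 0.831). After the exchange Akr1c21 (72.1), Gsta4 (53.2) and Serpina3a (5.40, adjusted p = 0.0353) still passed, and Prdx2 did not (4.17, adjusted p = 0.0736). Of all 15928 probe sets, 3411 passed after the exchange, against 7679 as labelled. The Prdx2 call was also lost with cyclic loess (1.52), with quantile normalization (3.57), with 16 added before the log (3.89) and without any one of 7 arrays, B6 day 0 replicate 3 giving the lowest F (2.84).

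**Figure D5:**
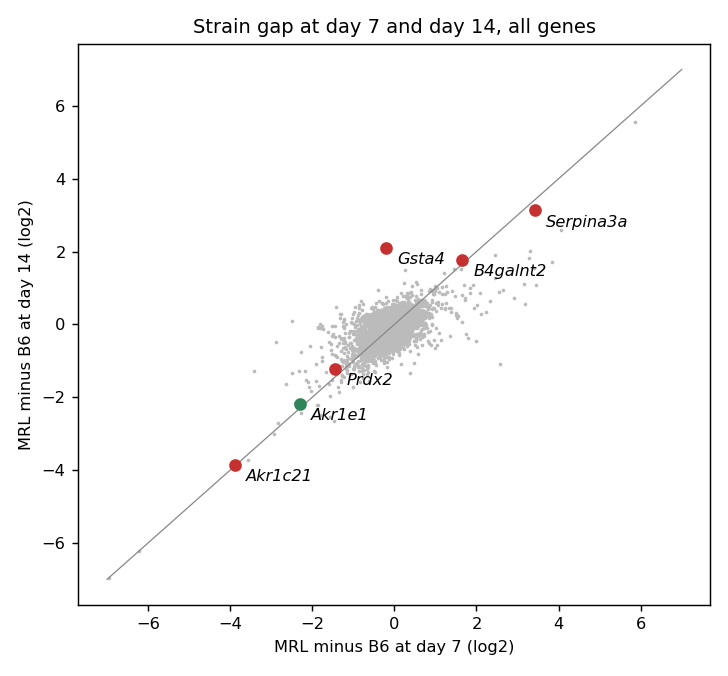
MRL minus B6 difference in log2 intensity at day 7 (x axis) and day 14 (y axis) for 14807 genes (grey), with the 5 genes in red, Akr1e1 in green and a line of equal gaps. Akr1c21, Prdx2, B4galnt2 and Serpina3a lie near the line, whereas Gsta4 lies off it at -0.19 and 2.10.

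Genes with the most similar course were found by the root mean square difference of log2 values, each gene centred on its own mean, over the 24 arrays. For B4galnt2 the nearest were Hacl1, a peroxisomal lyase (0.327), and Atp10d, a lipid flippase (0.386). For Prdx2 they were Pop4, a subunit of ribonuclease P (0.296), and Ezh1, a histone methyltransferase (0.322). Akr1c21 was nearest to Cyp2g1, a cytochrome P450 (1.08), and Skint4 (1.11). Each gene's own spread was 2.03 for Akr1c21, 1.31 for Gsta4, 1.56 for Serpina3a, 0.928 for B4galnt2 and 0.743 for Prdx2. Gsta4 was nearest to Rbp2, a retinol-binding protein (0.703). Serpina3a was nearest to Hacl1 (0.782), followed by Rbp7 (0.839) and the hair and nail keratin Krt84 (0.841), and then B4galnt2 (0.858).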

How the data were processed

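The authors measured total RNA on Affymetrix arrays and deposited 1 table of values for 24 arrays. The submitters' processing notes name RMA, Affymetrix Expression Console and the genome build mm8, without their roles. The deposited values are intensity on a linear scale, from 3.99 to 12789, and the step that made RMA values linear was not given in the sources used here. For the fit, log2 of each deposited intensity was taken with no further normalization, and array medians spanned 0.36 on the log2 scale. Precision is limited by the number of arrays.

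Of 16661 probe sets, 14939 had 1 gene symbol, 989 had several and 733 had none in the platform's annotation. The 15928 with a symbol were fitted in R 4.3.3 by limma 3.58.1, using lmFit with eBayes (8 group means, 16 residual and 4.62 prior degrees of freedom). P-values were adjusted by Benjamini-Hochberg over these, and a call passes at an adjusted p under 0.05. Single genes were named only from probe sets with 1 symbol. For a gene with several probe sets, the one with the highest mean was used, and each of the 5 genes had 1. The fit was tested on simulated data.

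The 5 genes, the family and marker lists and the tests were chosen with earlier results of these data known. Named besides the 5 genes were, in each family list, up to 4 genes with the largest gap at day 7 and those that passed at both day 7 and day 14, up to 3 measured neighbours on each side in the RefSeq gene order of GRCm38.p6, and the genes of most similar course, up to 5 per gene. Of the 5 genes, 4 matched an entry in the RefSeq promoter table. Il1b, Krt31 and H2-Ea were used to check labels. Replicate numbers are shared between groups, but of 84 correlations between same-numbered arrays only 10 were above 0.1, so the numbers were not taken as pairs. No 2 replicate arrays were identical. Alternatives tried were cyclic loess, quantile normalization, 16 added before the log, a minimum mean log2 of 6, array weights, a trended and robust prior, a replicate block, a fit of the compared arrays alone, the exchange or removal of the doubtful MRL arrays, and leaving out each array.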

Additional observations from a re-analysis of the deposited data

Results flagged for a closer look

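A strain gap that changed between days was looked at again wherever its change from another day passed the test of the difference between strains. Such changes were found in 4 of the 5 genes. Over all probe sets, 45.2%, 31.2% and 26.7% passed for the change from day 0 at days 3, 7 and 14. From day 7 to day 14, 0.264% passed. For Akr1c21 the gap changed from day 0 by 4.76 at day 3, 1.22 at day 7 and 1.25 at day 14. For Prdx2 it changed by 0.56 at day 3 and 0.57 at day 14. For Gsta4 it changed from day 0 by -3.30, -3.44 and -1.15, and from day 7 to day 14 by 2.29. For Serpina3a it changed by 2.86, 2.50 and 2.19. All but the Gsta4 change from day 7 to day 14 use arrays labelled MRL day 0 or MRL day 3, whose labels are in doubt.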

How the results depend on the processing

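Across 10 alternative settings and 24 fits that left out 1 array, 3474 of 3576 recomputed values kept their side of the threshold or stayed within the spread. Many of these had an estimate that could not move, so the share does not measure robustness. Leaving out 1 array does not alter the estimate of a comparison that does not use it. Exchanging the MRL arrays does not alter estimates from B6 arrays alone or from days 7 and 14 alone. The kept values include 57 changes of sign where neither fit passed, and counts of called probe sets within the limit given below. With the MRL day 0 and day 3 arrays exchanged, the day 0 gap was -4.82 for Akr1c21, -1.25 for Prdx2, 3.57 for Gsta4 and 2.73 for Serpina3a, and the day 3 gap was -1.79 for Prdx2, -0.38 for Gsta4 and 2.00 for Serpina3a. Gap changes from day 0 reversed for Prdx2 (-0.54) and Serpina3a (-0.74) at day 3, and no longer passed for Prdx2 at day 14 (0.020) and for Serpina3a at day 7 (0.70) and day 14 (0.40), nor did the F of Prdx2 (4.17). The exchange gave 1741 called probe sets for the day 3 gap, 1577 for its change at day 3 and 3411 for the F test, against 6474, 7200 and 7679.

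With 16 added before the log, the Akr1c21 gap was -4.21, -2.83 and -2.88 at days 0, 7 and 14, that of B4galnt2 1.56, 1.48 and 1.43 at days 0, 3 and 14, that of Serpina3a 3.31 at day 3, and the F of Prdx2, which no longer passed, 3.89. With cyclic loess the Prdx2 gap was -1.41 at day 3, its changes 0.22 at day 3 and 0.48 at day 14 and its F 1.52, none of the 3 passing, while Gsta4 changed by -0.89 at day 14, which no longer passed, and the Serpina3a gap was 1.11 at day 0. Quantile normalization gave a change of 0.48 at day 3 and an F of 3.57 for Prdx2, neither passing, and array weights gave a Prdx2 gap of -1.11 at day 14 and a change of 0.46 at day 7 that passed. In the fit of the compared arrays alone, the Gsta4 change of 2.29 from day 7 to day 14 did not pass. The cause of these changes was not tested.

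Counts of called probe sets moved by over 1.5 times with array weights, to 3107 and 2912 for the gaps at days 7 and 14, 201 for the gap change between those days, 5428 and 557 for B6 day 7 against 3 and 14 against 7, 2451 for MRL day 14 against 7, and 5709 and 5372 for MRL days 7 and 14 against labelled day 3. The compared arrays alone gave 424 for the day 14 gap, 1 for the gap change between days 7 and 14, 1914 and 159 in B6, and 246 and 1318 in MRL, with fewer arrays behind each estimate. Cyclic loess gave 460 for B6 and 891 for MRL at day 14 against 7, and quantile normalization 869 for the latter.

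Leaving out 1 array gave a Prdx2 change of 0.40 to 0.68 at day 3 and 0.41 to 0.69 at day 14, an F of 2.84 to 6.22 that ceased to pass without any one of 7 arrays, and a Gsta4 change at day 14 of -1.57 to -0.91. Both Prdx2 changes ceased to pass without B6 day 0 replicate 3, that at day 14 also without MRL day 14 replicate 1, and that of Gsta4 without B6 day 14 replicate 1 or 2, B6 day 0 replicate 1, MRL day 0 replicate 1 or MRL day 14 replicate 3. Called probe sets ran from 894 to 1713 for the day 7 gap, 499 to 1177 for day 14, 27 to 50 for the gap change, 174 to 335 for B6 and 294 to 635 for MRL day 14 against 7, and 2113 to 3621 and 1319 to 2253 for MRL labelled day 3 against 0 and day 14 against labelled day 3. Over all settings and fits leaving out 1 array, 7 recomputed within-strain values of the 5 genes ceased to pass and 14 came to pass, with the same direction. A replicate block changed 0 of 108 results (for Gsta4 the change stayed at 2.29), and the numbers do not pair the arrays. Precision is limited by 3 arrays a group, each gene rests on 1 probe set, and probe sequences were not used here.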
